A study of Mus musculus with 15 samples.

Results

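Granzymes, perforin and Fas ligand are the molecules with which a CD8+ T cell kills its target. The genes of this machinery described here were chosen by name: the granzymes Gzma, Gzmb, Gzmc, Gzmk and Gzmm, perforin (Prf1), Fas ligand (Fasl), cathepsin W (Ctsw) and serglycin (Srgn). These 9 genes were read out of 55536 genes matched in 15 bulk RNA-seq libraries, and 8 of the 9 (Gzmc being the exception) passed the filter on low counts that left 17366 genes for testing. Levels are given as CPM, counts divided by the scaled total of their library.

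Cytotoxic granules hold perforin, which opens pores in the target membrane, and granzymes, serine proteases that pass through and cleave proteins inside the target. Serglycin is the proteoglycan on which granzymes are packed, and cathepsin W is a cysteine protease of cytotoxic lymphocytes. Fas ligand is a surface protein that triggers death through the Fas receptor, a route that needs no granule pore. In mouse T cells, granzyme B is the classical marker of an activated killer cell, whereas perforin mRNA can already be present before activation.

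The cells were OT-I T cells, which carry a transgenic T cell receptor for the ovalbumin peptide SIINFEKL, on a C57BL/6J background; the study's methods name both Rag1-/- and Rag2-/- OT-I lines without tying them to libraries. Naive libraries (Naive, n = 5) came from CD8+ T cells purified from naive OT-I mice with no transfer. For the Ag group (n = 5), OT-I cells were transferred into wild-type C57BL/6J recipients that received the peptide with rat IgG as antibody control. For the Ag+Costim group (n = 5), recipients received the peptide with agonist antibodies to CD134 (OX40) and CD137 (4-1BB), and in both groups OT-I cells were sorted from spleen and lymph nodes on day 4 by the labels, while the methods describe a somewhat earlier harvest. The recipients keep their own lymphocytes, so purity rests on the sort. Naive cells also differ from the other groups in never having been transferred.

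Library totals ran from 4865952 counts (Ag 3) to 25280667 (Naive 3), with a median of 14967616. Ag 3 stood apart in the sequencing core's table, with 15.4% in the column named RiP against 43.8% to 78.3% in the other libraries, and Ag 2 and Ag 5 had an input of 1.40 and 1.80 (unit not given) against 7 to 10 elsewhere. Lane 2 held every Ag library and Ag+Costim 1 to 3, while lane 3 held every Naive library and Ag+Costim 4 and 5, so lane and group cannot be told apart between Ag and Naive. The 6 CD8 T cell markers (Cd8a, Cd8b1, Cd3d, Cd3e, Cd3g and Trac) summed to 3926 to 7573 CPM in the 15 libraries and none was at 0 in any. The 5 NK cell markers, listed because NK cells carry the same granules, summed to 23.2 to 130 CPM in Naive and 28.6 to 102 in Ag, with the highest sums in Naive 2 and Ag 3. The sums of the costimulated libraries were 16 to 41.7 CPM, with Ncr1 at 0 in 2 of them and Klrb1c at 0 in 1. The other NK cell markers, Klre1, Fcer1g and Tyrobp, had counts in all 15 libraries. Their means were 11.3, 9.13 and 8.15 CPM in Ag+Costim, 12.2, 10.8 and 14.3 in Ag and 15.4, 12.6 and 14.5 in Naive.

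Granzyme B, which cleaves caspases in the target cell, separated the libraries of a group more than the groups themselves. Gzmb was at 46.3, 189, 19.9, 26.8 and 363 CPM in Naive 1 to 5. It was at 9.73, 733, 435, 18.5 and 745 CPM in Ag 1 to 5. It was at 672, 701, 253, 523 and 616 CPM in Ag+Costim 1 to 5. Ag thus held both the 2 highest and the 2 lowest of the 15 libraries: Ag 2 and Ag 5 were above every costimulated library, and Ag 1 and Ag 4 were below every Naive library. In the FPKM values that the authors also deposited, the columns of Naive 5 and Ag 1 are identical over 22083 rows, although their counts differ. The reason was not tested, and the libraries were kept as labelled. The highest library of a group exceeded its lowest by a factor of 18.2 in Naive and 76.5 in Ag but 2.77 in the costimulated group. The mean was 129 ± 148 CPM in the Naive group, 388 ± 363 with antigen and 553 ± 181 with antigen and costimulation (SD, n = 5 each).

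Granzyme A, a tryptase-like granzyme, followed the same libraries. Gzma was at 41.6, 142, 23.7, 71.9 and 147 CPM in Naive 1 to 5. It was at 10.5, 269, 268, 11.4 and 368 CPM in Ag 1 to 5. It was at 195, 312, 138, 155 and 157 CPM in Ag+Costim 1 to 5. As for Gzmb, 3 of 5 Ag libraries lay above every Naive library and the other 2 below every Naive library.

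Granzyme K, a tryptase-like granzyme of memory and effector T cells, spanned a range as wide as that of Gzmb. Gzmk was at 14.3, 53.9, 3.99, 3.27 and 126 CPM in Naive 1 to 5. It was at 3.62, 206, 181, 5.08 and 288 CPM in Ag 1 to 5. It was at 216, 253, 123, 151 and 187 CPM in Ag+Costim 1 to 5. As for Gzmb and Gzma, Naive 5 was above 1 of the 5 costimulated libraries, Ag+Costim 3, and 3 of 5 Ag libraries were above every Naive library.

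Granzyme M, a granzyme best known from NK cells, was the lowest of the tested granzymes. Gzmm was at 12.6, 19.7, 5.89, 10.5 and 26.9 CPM in Naive 1 to 5. It was at 5.42, 36.6, 39.0, 3.22 and 50.8 CPM in Ag 1 to 5. It was at 32.1, 41.5, 27.5, 23.9 and 30.6 CPM in Ag+Costim 1 to 5. Ag 1 and Ag 4 were again the 2 lowest libraries of the 15.

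Granzyme C, whose gene sits beside Gzmb on chromosome 14, was close to the limit of detection. Its highest level was 1.45 CPM, in Ag 2, which was 21 counts, and it had 0 counts in Naive 1, Naive 2, Naive 4, Ag 1 and Ag 4. A count of 0 there allows a level of up to 0.192 to 0.258 CPM, the value of 3 counts in those libraries, for counting error only. All 5 costimulated libraries had counts (6 to 14, or 0.389 to 1.14 CPM) and lay above all 5 Naive libraries in CPM. Naive 3 had 6 counts and Naive 5 had 5 (0.224 and 0.332 CPM), so in raw counts Naive 3 equalled the lowest costimulated library. The other granzymes of that cluster, Gzmd, Gzme, Gzmf, Gzmg and Gzmn, had 3 counts (Gzmd) in the Naive libraries together, 13 counts (Gzmf) in Ag and 8 counts (Gzmf) in Ag+Costim. Of the 50-base windows of the Gzmc transcript, 4.14% were also found in Gzmd, Gzme or Gzmg, so the few counts of these genes are uncertain, and no window of the other 8 genes was found in another annotated gene.

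**Figure D1:**
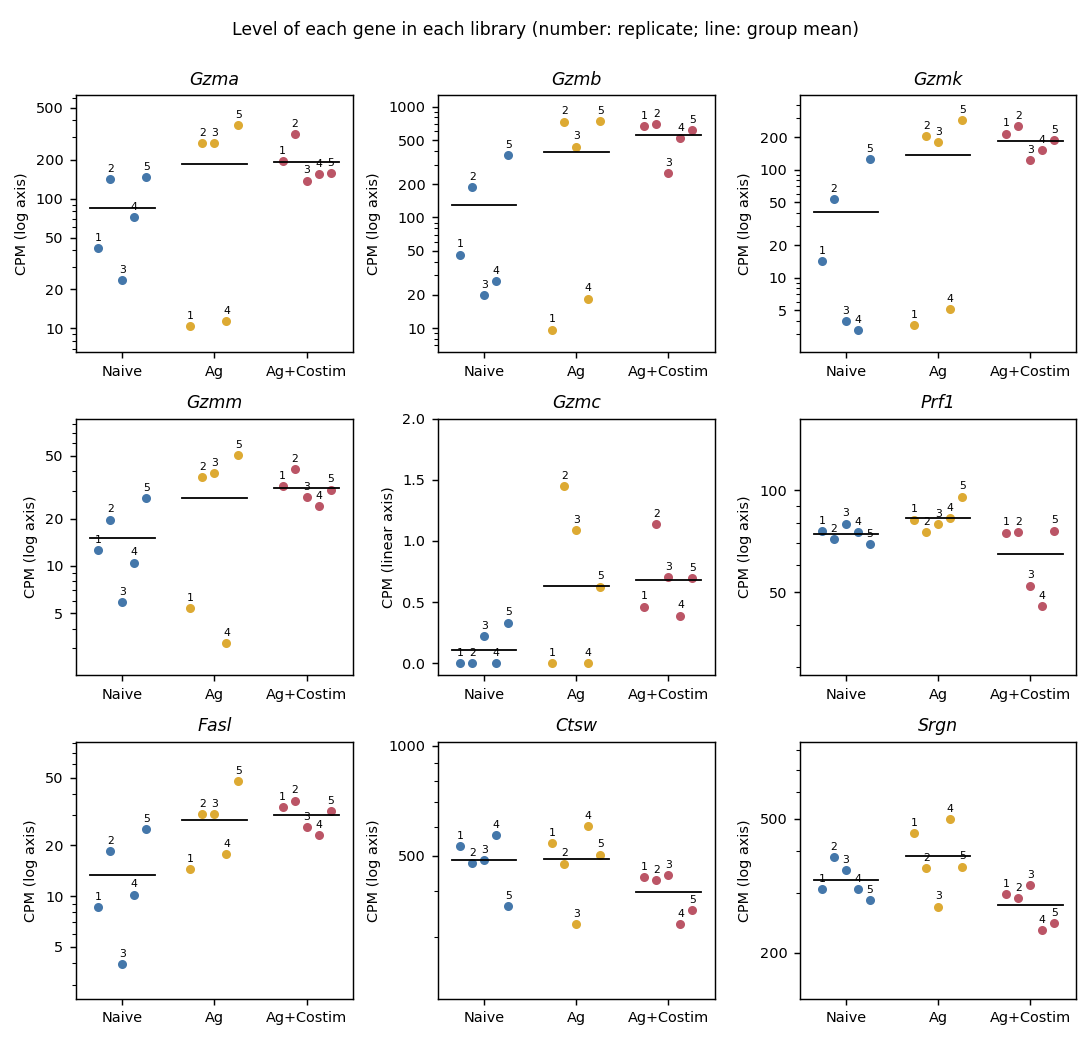
Level of the 9 genes in each library in CPM (vertical axis, logarithmic except for Gzmc, which has a linear axis), by group (horizontal axis). Points are libraries with their replicate number and lines are group means (n = 5). For Gzma, Gzmb, Gzmk and Gzmm, Ag 1 and Ag 4 lie far below Ag 2, Ag 3 and Ag 5, while the costimulated libraries lie close together; Prf1 stays between 45.4 and 95.9 CPM throughout.

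Perforin did not share this pattern. Prf1 was at 75.8, 71.8, 79.7, 75.1 and 69.5 CPM in Naive 1 to 5. It was at 82.0, 75.1, 79.5, 82.8 and 95.9 CPM in Ag 1 to 5. It was at 75.0, 75.3, 52.3, 45.4 and 76.0 CPM in Ag+Costim 1 to 5. Ag 1 and Ag 4, the libraries with the least granzyme, were thus slightly above the Naive range for Prf1, and Ag+Costim 3 and 4 were the lowest of the 15. The coefficient of variation within Naive was 5.28% for Prf1 against 115% for Gzmb.

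Fas ligand lay between these patterns. Fasl was at 8.65, 18.4, 3.95, 10.2 and 25.0 CPM in Naive 1 to 5. It was at 14.5, 30.4, 30.5, 17.6 and 48.0 CPM in Ag 1 to 5. It was at 33.5, 36.7, 25.6, 23.0 and 31.8 CPM in Ag+Costim 1 to 5. Ag 1 and Ag 4 were again the 2 lowest Ag libraries, but they were within the range of the Naive libraries instead of below it.

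Serglycin and cathepsin W were abundant in each group, and within each group their libraries spread less than those of Gzma, Gzmb, Gzmk and Gzmm. Serglycin was at 309, 385, 353, 308 and 286 CPM in Naive 1 to 5, at 454, 357, 274, 499 and 360 CPM in Ag 1 to 5, and at 299, 290, 318, 233 and 245 CPM in Ag+Costim 1 to 5. Its 2 highest libraries were Ag 4 and Ag 1, the reverse of the granzymes. Cathepsin W had 364 to 570 CPM in the Naive libraries, 326 to 603 with antigen and 325 to 443 with costimulation, also with Ag 4 highest. In bulk RNA, fewer cells with a transcript and less RNA per cell cannot be told apart, so these values do not say whether part or all of the cells in Ag 1 and Ag 4 lacked granzyme transcripts.

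**Figure D2:**
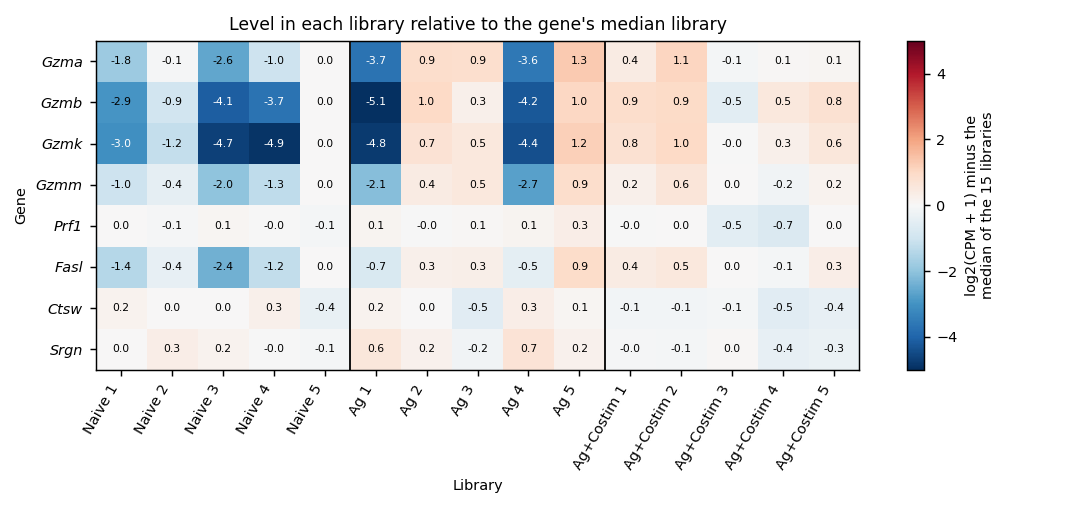
Level of the 8 tested genes in each library as log2(CPM + 1) minus the gene's median over the 15 libraries (colour and printed value). Rows are genes, columns are libraries and vertical lines divide the groups. Gzmb runs from -5.1 in Ag 1 to 1.0 in Ag 2 and Ag 5, whereas Prf1 runs from -0.7 to 0.3.

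Other measures differed between the same Ag libraries. The summed level of 4 genes of the naive T cell state (Ccr7, Lef1, Tcf7 and Il7r) was 2038 CPM in Ag 1 and 2113 in Ag 4, against 967, 797 and 903 in Ag 2, Ag 3 and Ag 5. In Naive it was 1515 CPM in Naive 5, the Naive library with the most granzyme, and 2914 to 4155 in the others, and in Ag+Costim it was 685 to 1072. The summed level of 5 B cell markers was 137, 15.6, 361, 168 and 20.5 CPM in Ag 1 to 5, against 13.7 to 31.7 in the other groups. NK cell markers summed to 28.6 and 28.8 CPM in Ag 1 and Ag 4, and to 29.1, 102 and 46.0 in Ag 2, Ag 3 and Ag 5. Naive 2 and Naive 5 had 130 and 70.1 CPM of NK cell markers, above the 23.2 to 60.4 of the other Naive libraries. The 5 mast cell and basophil markers, another source of granule genes, summed to at most 14.4 CPM, in Ag 3. The 4 erythroid markers summed to 705 CPM in Ag 3 and to at most 82.2 elsewhere, the 5 myeloid markers to between 11.3 (Naive 1) and 177 (Naive 5) and the 4 CD4 T cell markers (Cd4, Cd40lg, Foxp3 and Ctla4) to between 18.5 (Naive 3) and 144 (Ag 4). In Ag 4, Ctla4, which activated CD8+ T cells also express, made up 129 CPM of that sum, with Cd4 at 0.859 CPM. All 5 Ag libraries were in lane 2, so they did not differ in lane. Input was 1.40 and 1.80 in Ag 2 and Ag 5, but 9.40 in Ag 3 and 10 in Ag 1 and Ag 4. The part of these cell types or of input in the granzyme levels was not tested.

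Taken as a share of all counts, the 5 granzymes together held 0.00324% of Ag 1 and 0.00409% of Ag 4, against 0.117%, 0.0872% and 0.129% of Ag 2, Ag 3 and Ag 5. The costimulated libraries held 0.0515% to 0.125% and the Naive libraries 0.00570% to 0.0657%. The make-up of the granzyme counts also varied between libraries. Gzmb was 60.2%, 53.6%, 46.7%, 61.2% and 62.1% of granzyme counts in Ag+Costim 1 to 5, but 23.8% in Naive 4, where Gzma made up 63.9%. Gzmm was 18.5% of the 340 granzyme counts of Ag 1 and 2.80% to 5.07% in the costimulated libraries. Ag 4, with 534 granzyme counts, had 48.5% Gzmb and 8.43% Gzmm, so its Gzmb share was above that of Ag+Costim 3. Counts were not divided by length here, and the genes share each library's total.

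**Figure D3:**
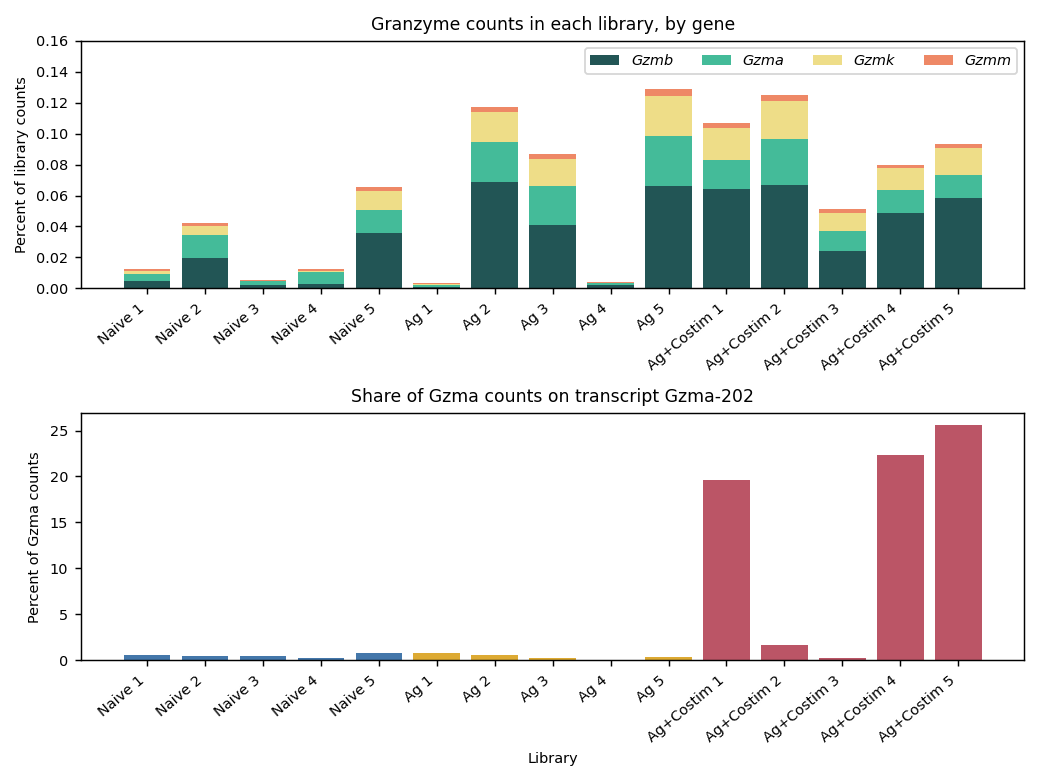
Upper panel: granzyme counts of each library (bars, horizontal axis) as a percent of all its counts, divided by gene (colours; Gzmc is too small to draw). Lower panel: share of Gzma counts assigned to transcript Gzma-202. The granzyme share is lowest in Ag 1 (0.00324%) and highest in Ag 5 (0.129%), and Gzma-202 exceeds 19% in Ag+Costim 1, 4 and 5.

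Per transcript length, scaled to the same sum in each library as TPM is, the order of the genes in Ag+Costim was Gzmb (564 ± 186), Srgn (419 ± 53.8), Ctsw (405 ± 53.8), Gzma (315 ± 121), Gzmk (235 ± 66.3), Prf1 (39.6 ± 9.35), Gzmm (35.5 ± 7.67), Fasl (22.8 ± 4.38) and Gzmc (1.11 ± 0.485; SD, n = 5 each). Neighbours from Gzmb to Gzmk differed by less than the larger of their SDs, as did Prf1 and Gzmm, while the step from Gzmk to Prf1 was larger than both SDs. In Naive the order began with Ctsw (559 ± 106) and Srgn (545 ± 65.4), followed by Gzma (153 ± 96.4) and Gzmb (140 ± 158). On the same scale Gzmb held rank 4 without stimulation, rank 3 with antigen (350 ± 323) and rank 1 with costimulation. No test was made of these orders.

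Stimulation by antigen was compared with no stimulation (Ag against Naive) to ask which members antigen priming changed. No member passed the threshold of an adjusted p under 0.05 (edgeR quasi-likelihood test, Benjamini-Hochberg adjustment over 17366 genes), where 6.71% of tested genes did. With edgeR an unadjusted p under 0.05 was reached by 1 member and by 4980 of the 17366 tested genes. DESeq2 called 0 members and limma voom 1 (Srgn), where they called 16.8% and 23.3% of the genes they tested. With edgeR all 8 tested members had a log2 fold change above 0, with a median of 0.96 against 0.08 over all tested genes. These directions were not stable: under limma voom Gzma (-1.80), Gzmb (-0.99), Gzmk (-0.31) and Gzmm (-1.04) were negative, and Ctsw was negative with DESeq2 (-0.0278). The largest were those of Gzmk (1.76, SE 1.10, adjusted p = 0.282), Gzmb (1.59, SE 1.02, adjusted p = 0.296) and Gzma (1.12, SE 0.81, adjusted p = 0.349). Fasl (1.10, SE 0.42, adjusted p = 0.113) was the member with an unadjusted p under 0.05, and it passed when Naive 5 was left out (log2 fold change 1.47, adjusted p = 0.0252). Prf1 differed by 0.16 (SE 0.14, adjusted p = 0.442), Gzmm by 0.83 (SE 0.61), Srgn by 0.25 (SE 0.16) and Ctsw by 0.01 (SE 0.17). No member's Ag and Naive libraries were free of overlap, against 3.85% of tested genes.

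The addition of costimulation was compared with antigen alone (Ag+Costim against Ag). By edgeR 0 members passed and 2 had an unadjusted p under 0.05, as did 4647 of the 17366 tested genes. The threshold was one that 0.0346% of tested genes (6 genes) passed with edgeR. DESeq2 called 1 member (Srgn), where it called 18.4% of the genes it tested. No member's groups were free of overlap, against 6.33% of tested genes. The granzymes had log2 fold changes of 0.51 (Gzmb, SE 1.00, adjusted p = 0.760), 0.45 (Gzmk, SE 1.06), 0.21 (Gzmm, SE 0.60) and 0.05 (Gzma, SE 0.80). Serglycin had the smallest p of the members, with a log2 fold change of -0.49 (SE 0.16, adjusted p = 0.0887), and Prf1 was next with -0.36 (SE 0.14, adjusted p = 0.129). Ctsw stood at -0.30 (SE 0.17) and Fasl at 0.09 (SE 0.41). The median over the members was 0.07 against -0.10 over all tested genes. The calls differed under limma voom with sample quality weights, which called 64.5% of all tested genes and gave 7 members an adjusted p under 0.05, among them Gzmb (log2 fold change 4.77) and Gzmk (4.87), with weights of 1.76 and 1.5 for Ag 1 and Ag 4 and of 0.122, 0.362 and 0.0793 for Ag 2, Ag 3 and Ag 5. Without Ag 5, and without Ag 3 and Naive 5 together, Srgn passed.

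Antigen with costimulation was then compared with naive cells (Ag+Costim against Naive). Both earlier comparisons share a group with this one, so the 3 are not independent. Fasl rose, with a log2 fold change of 1.19 (SE 0.42, adjusted p = 0.0351) from 13.2 ± 8.38 to 30.1 ± 5.67 CPM (SD, n = 5 each), and was the 1 member of the 8 tested that passed, where 44.7% of tested genes did. In this comparison DESeq2 called 1 member (Fasl) and limma voom 6, beside 37% and 77.9% of the genes they tested. The granzymes had larger fold changes with larger SEs: 2.21 for Gzmk (SE 1.11, adjusted p = 0.111), 2.1 for Gzmb (SE 1.04, adjusted p = 0.106), 1.17 for Gzma (SE 0.81, adjusted p = 0.236) and 1.04 for Gzmm (SE 0.61, adjusted p = 0.162). The fit shares its estimate of spread over all 15 libraries, so these SEs also hold the spread of Ag. For Gzmb the SD of log2(CPM + 1) was 3.00 in Ag, 1.79 in Naive and 0.603 in Ag+Costim. With only the 10 libraries of the comparison 5 members passed, among them Gzmb and Gzmk, where 10205 of 15751 genes did. For each of these 4 granzymes and for Fasl, 4 of the 5 costimulated libraries were above every Naive library. Gzmc was the 1 member of 9 whose 2 groups did not overlap in CPM, against 45% of the tested genes. It was not itself tested because of its low counts. Prf1 (-0.20, SE 0.14), Srgn (-0.24, SE 0.16) and Ctsw (-0.29, SE 0.17) had negative fold changes that did not pass. The median over the members was 1.11 against -0.08 over all tested genes. With lane as a term the Fasl difference was 1.05 (adjusted p = 0.154), and within lane 3 it was 1.07 (adjusted p = 0.154), so the call was lost there at nearly the same size. Without Naive 1, 3 or 4, or Ag+Costim 1, 2 or 5, its adjusted p was between 0.0625 and 0.0851. Without Naive 5, Gzmb (log2 fold change 2.99, adjusted p = 0.0382) and Gzmk (3.33, adjusted p = 0.0317) passed as well.

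**Figure D4:**
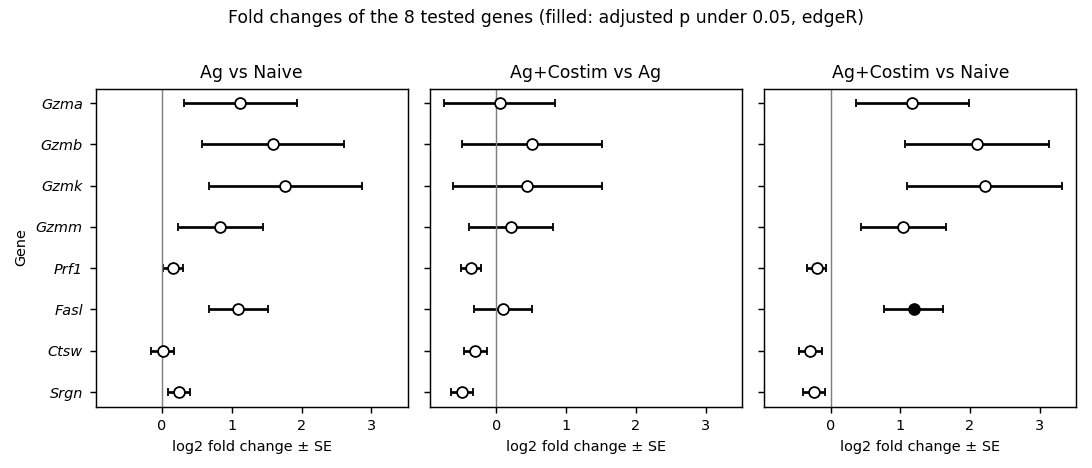
Log2 fold change (horizontal axis) with its SE (bars) for the 8 tested genes in the 3 comparisons (edgeR, 15 libraries). The filled point marks the 1 adjusted p under 0.05, Fasl in Ag+Costim against Naive (1.19, SE 0.42); the granzyme bars are several times wider than those of Prf1, Ctsw and Srgn.

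Because Gzmb, Gzma, Gzmk and Gzmm moved together over libraries and Prf1 did not, the sequence before each start is shown. RefSeq held promoter sequences (GRCm38.p6) for 8 of the 9 members; Ctsw is named only. The lines give 200 bases before the RefSeq start, 5′ to 3′ on the gene's strand, with capitals for exact matches to 9 letter patterns named for factor families: AP-1 (TGANTCA), CRE (TGACGTCA), T-box (GGTGTGA), RUNX (TGTGGT), NFAT (GGAAAA), ETS (GGAAGT), NF-kB (GGGANTTCC), STAT (TTCNNNGAA) and TCF/LEF (CTTTGA), each searched on both strands. The patterns were chosen after the levels were seen.
Gzmb, chr14:56262335-56262534, minus strand: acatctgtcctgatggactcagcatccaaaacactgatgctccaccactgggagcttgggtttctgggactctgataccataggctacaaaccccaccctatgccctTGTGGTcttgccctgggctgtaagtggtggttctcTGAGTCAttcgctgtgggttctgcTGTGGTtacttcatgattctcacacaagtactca
Gzma, chr13:113100982-113101181, minus strand: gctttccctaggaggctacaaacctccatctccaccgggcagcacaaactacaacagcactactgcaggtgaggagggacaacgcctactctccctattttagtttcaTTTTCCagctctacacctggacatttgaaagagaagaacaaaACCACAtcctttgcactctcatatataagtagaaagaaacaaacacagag
Gzmk, chr13:113180966-113181165, minus strand: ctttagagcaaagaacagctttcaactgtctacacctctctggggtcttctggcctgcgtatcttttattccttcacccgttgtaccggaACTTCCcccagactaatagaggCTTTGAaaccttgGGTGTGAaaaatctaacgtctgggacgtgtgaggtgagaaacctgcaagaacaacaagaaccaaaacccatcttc
Gzmm, chr10:79688820-79689019, plus strand: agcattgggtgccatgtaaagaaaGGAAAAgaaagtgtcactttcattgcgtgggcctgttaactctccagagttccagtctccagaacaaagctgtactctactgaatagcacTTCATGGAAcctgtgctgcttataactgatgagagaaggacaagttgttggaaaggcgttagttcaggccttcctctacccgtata
Prf1, chr10:61297636-61297835, plus strand: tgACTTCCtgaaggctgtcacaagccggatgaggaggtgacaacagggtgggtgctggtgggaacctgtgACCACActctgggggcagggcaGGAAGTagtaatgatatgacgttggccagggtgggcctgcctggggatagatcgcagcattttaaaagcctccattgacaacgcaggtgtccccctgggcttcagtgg
No single pattern was found before all 4 of these granzymes. Within 250 bases of the start, the AP-1 letters stood 58 bases before Gzmb, and 6.75% of the 32851 promoters hold them. RUNX letters (14.0% of promoters) stood 93 and 34 bases before Gzmb, 50 before Gzma, 247 before Gzmm and 130 before Prf1, and also before Gzmc and Srgn. T-box letters (3.33%) stood 75 bases before Gzmk and 189 before a second Gzmm start, TCF/LEF letters (13.8%) 88 before Gzmk and STAT letters (7.02%) 86 before Gzmm. NFAT letters (20.4%) stood 92 bases before Gzma and 176 before Gzmm, and also before Fasl and Srgn. ETS letters (19.7%) stood 110 bases before Gzmk, 198 and 108 before Prf1 and 26 before Fasl, and also before Srgn and Gzmc. The CRE letters (1.55%) stood 57 bases before Gzmc, and the NF-kB letters (1.43%) before none of the members. These are letter matches and say nothing of binding. The RefSeq starts of Gzmb and Gzmk lie 74 and 44 bases upstream of the nearest GENCODE transcript start, and the longer Gzmk-202 transcript starts elsewhere, at position 113225908.

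The granzymes include 2 pairs that are neighbours in the genome. Gzma (chr13:113093825-113100981) and Gzmk (chr13:113171608-113225908) lie 70.6 kb apart on the minus strand, and Gzmb (chr14:56258838-56262260) and Gzmc (chr14:56231441-56234656) lie 24.2 kb apart on the minus strand (GENCODE M21, mm10). Over the 15 libraries, the Pearson correlation of log2(CPM + 1) was 0.99 for Gzmb with Gzmk, which are on different chromosomes, 0.98 for Gzma with Gzmm, also on different chromosomes, and 0.91 for the neighbours Gzma and Gzmk. Fasl correlated with Gzmk at 0.86, Srgn with Ctsw at 0.81, and Prf1 with Gzmb at -0.23. The libraries fall into high and low sets, so these coefficients describe that division and carry no test.

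Other genes were ranked by their likeness to each member, among the 11330 genes outside the members whose mean reached 5 CPM. Among the members, Gzma and Gzmm were closer to each other, and Gzmb was closer to Gzmk, than any gene named here, and Gzmk came after Gm6637 for Gzmb. Outside the members, closest to Gzmb were Gm6637 (r = 0.99), Gcat (0.98) and Ahcy (0.98), the last encoding adenosylhomocysteinase. Closest to Gzmk were Id2 (0.99), a transcriptional regulator of effector T cells, Adap1 (0.98) and Rpa2 (0.98), a subunit of the replication protein A complex. Closest to Gzma were Ccr2 (0.96), a chemokine receptor, Errfi1 (0.96) and Ptges2 (0.94), and Ccr2 was also first for Gzmm (0.97), before Ctla2a (0.96) and I830127L07Rik (0.95). Fasl was closest to Gm47854 (0.97), Klrk1 (0.96), the NKG2D receptor, and Slamf7 (0.96). Prf1 had no such close companion, with Zfp160 at 0.85, Tax1bp3 at 0.73 and AC133103.3 at 0.73. Ctsw was closest to Hes6 (0.96), H2-Q5 (0.96) and Tnfrsf18 (0.95), and Srgn to Atp6v1d (0.96), Rit1 (0.95) and Uqcc3 (0.93).

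The transcripts behind the member levels were read from the transcript counts. Gzma-202, a 6-exon coding transcript, held 19.7%, 1.72%, 0.307%, 22.3% and 25.6% of Gzma counts in Ag+Costim 1 to 5. In the 10 other libraries it held 0% to 0.820%, the rest being on the 5-exon Gzma-201. Ag+Costim 1, 4 and 5, which come from both lanes, thus differed from the other 12, and Ag 5, the library with the most Gzma counts (5872), had 0.409%. The split was made by the authors' assembler from short reads and no test was made of it. Gzmk-202 held 54.8% to 58.7% of Gzmk counts in the costimulated libraries, against 42.1% to 66.1% in Naive, and 90.5% in Ag 1 and 0% in Ag 4, whose Gzmk counts were low (42 in the lower of them). An intron of the long Gzmk-202 model lies over Esm1 on the other strand, and the library kit does not mark strand. Ctsw counts lay mostly on transcripts annotated with a retained intron, Ctsw-202 holding group means of 67.4% to 73.3%, and its end overlaps Fibp on the other strand. Prf1-202 held 88.5% to 90.6% of Prf1 counts and Srgn-201 91.3% to 92.7% of Srgn counts as group means, and Gzmb has 1 annotated transcript.

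A list of 45 further genes of the granule and death receptor pathways set the members beside the genes they work with, and 40 of them were tested. In Ag against Naive, 4 rose and 1 fell, where 6.71% of all tested genes passed, with a median log2 fold change of 0.27 against 0.08 over all tested genes. Cystatin F (Cst7), an inhibitor of the cathepsins that process granzymes, rose by 1.12 (SE 0.19, adjusted p = 0.00895), from 129 ± 39.5 to 281 ± 67.0 CPM (SD, n = 5 each), and its 2 groups did not overlap. Serpinb6b, a serpin, rose by 1.66 (SE 0.47, adjusted p = 0.0490), Nkg7, a granule membrane protein needed for degranulation, by 0.72 (SE 0.19, adjusted p = 0.0386) and Vamp8, a vesicle SNARE, by 0.64 (SE 0.12, adjusted p = 0.0127). Sytl1, a synaptotagmin-like protein that binds Rab27, fell by 1.44 on the log2 scale (SE 0.30, adjusted p = 0.0165). With lane as a term 0 passed, and without Naive 5 there were 13. The calls of Serpinb6b and Nkg7 held in 11 and 12 of 26 alternative settings, those of Cst7, Vamp8 and Sytl1 in 23, 23 and 22. By role, 2 of 10 granule content genes, 1 of 12 transport genes and 1 of 5 serpins rose, and none of 7 death receptor genes or 6 transcription factors passed.

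Between Ag+Costim and Ag, 0 of the 40 pathway genes passed with edgeR, where 0.0346% of all tested genes did. An unadjusted p under 0.05 was reached by 6 pathway genes, 2 higher and 4 lower, and by 4647 of the 17366 tested genes. DESeq2 called 2 of the pathway genes and limma voom 26, beside 18.4% and 64.5% of all genes they tested.

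Relative to naive cells, 14 of the 40 pathway genes rose and 6 fell with antigen and costimulation, with a median log2 fold change of 0.43. Serpinb9, the intracellular inhibitor that protects killer cells from their own granzyme B, rose by 1.94 (SE 0.73, adjusted p = 0.0431), from 133 ± 144 to 510 ± 92.4 CPM (SD, n = 5 each). Tbx21, the T-bet transcription factor, rose by 1.68 (SE 0.48, adjusted p = 0.0161), Id2 by 1.22 (SE 0.44, adjusted p = 0.0371), Stx11, a syntaxin needed for granule release, by 1.76 (SE 0.57, adjusted p = 0.0257) and Serpinb6b by 1.81 (SE 0.47, adjusted p = 0.0124). Sytl1 fell by 1.81 on the log2 scale (SE 0.30, adjusted p = 0.00237), from 29.4 ± 11.4 to 8.41 ± 1.33 CPM. The calls of Serpinb9, Id2 and Stx11 held in 15, 19 and 22 of 27 alternative settings, those of Serpinb6b, Tbx21 and Sytl1 in 25, 26 and 27. By role, 6 of 12 transport and release genes rose and 2 fell, 3 of 10 granule content genes rose, 2 of 5 serpins rose and 1 fell, 1 of 7 death receptor genes rose and 3 fell, and 2 of 6 transcription factors rose. Beside the 44.7% of all tested genes that passed, 20 of 40 is a share near the background, and with lane as a term 2 passed.

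**Figure D5:**
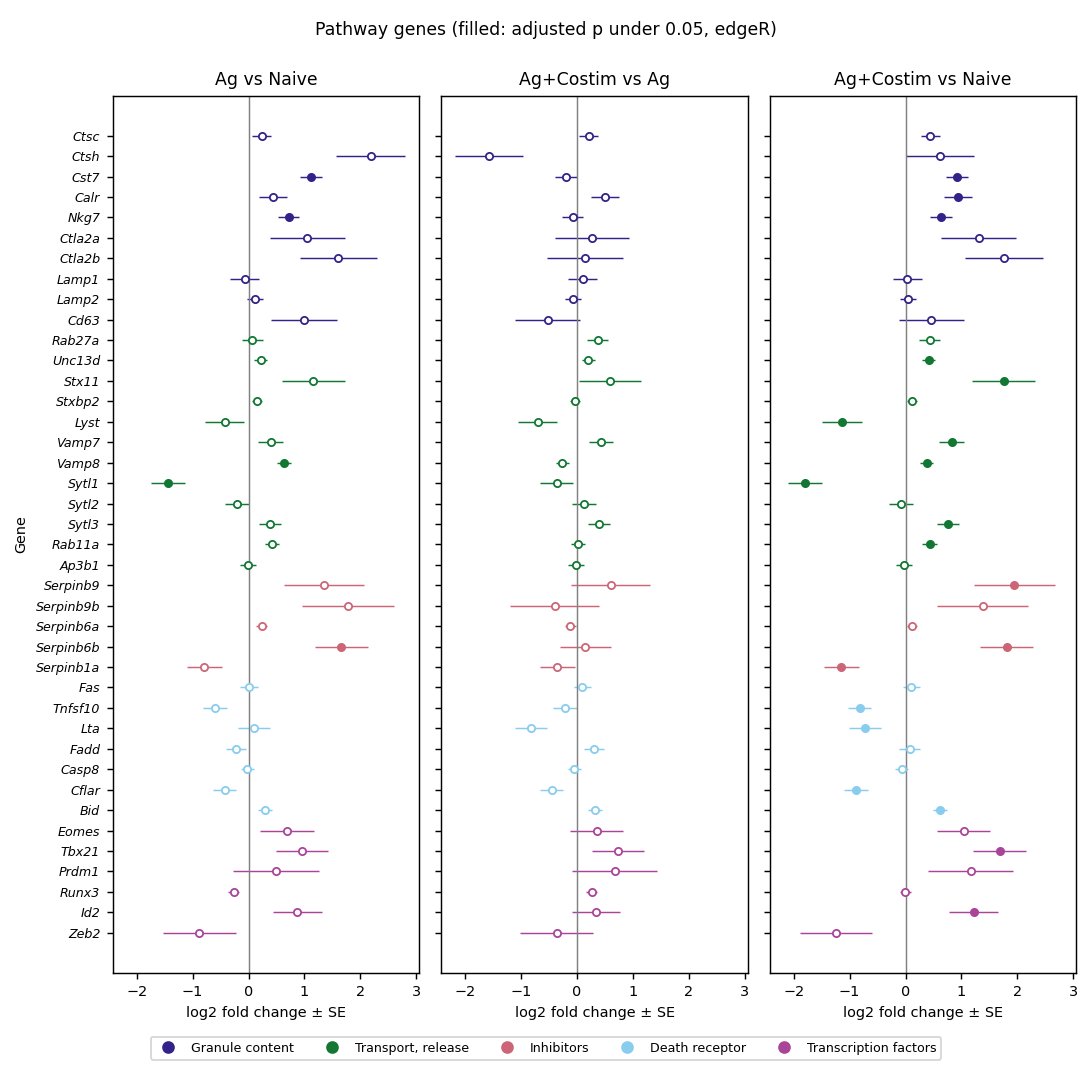
Log2 fold change (horizontal axis) with its SE (bars) for the 40 tested pathway genes, coloured by role, in the 3 comparisons; filled points have an adjusted p under 0.05 (edgeR, 15 libraries). Filled points number 5 in Ag against Naive, 0 in Ag+Costim against Ag and 20 in Ag+Costim against Naive.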

How the data were processed

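RNA of sorted OT-I CD8+ T cells was made into libraries with a SMART-Seq v4 kit and Nextera XT, which do not mark strand, and sequenced as single reads, of 50 bases per the file headers of the sequencing core's table, whereas the methods state a longer read. According to the processing notes and methods, the authors aligned reads to mm10 with HISAT2 2.1.0 and SAMtools 1.9 and deposited the estimated counts that StringTie 2.1.0 gives per gene and per transcript, as whole numbers. They also deposited FPKM values per transcript, in which the columns of Naive 5 and Ag 1 are identical, so both were left out there. The deposited sequencing table gave read counts, percent values, lane and input, and the deposited sample sheet gave recorded sex. Which annotation release and which read length entered the estimate is not given in the sources used here. Of 81881 gene entries, 55536 matched GENCODE M21 by ID, 26248 entries named by a number held 0.0818% of counts, and 97 others held 0 counts; unmatched entries were left out.

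The estimated counts were filtered (filterByExpr by group), scaled by TMM and fitted with edgeR 4.0.16 (R 4.3.3) over 15 libraries with 1 coefficient per group, and tested by the robust two-sided quasi-likelihood test with Benjamini-Hochberg adjustment. The SE is the log2 fold change divided by the square root of the F value. CPM were computed on the TMM-scaled totals. Genes in the 17366 tested had a common coefficient of biological variation of 0.431, and at the library totals of 4865952 to 25280667 counts this spread, not counting error, limits the precision. The fit was tested on simulated data in which a gene had the same spread in every group. That test therefore does not cover the unequal spread of the groups here. The alternatives were DESeq2 1.42.0, limma 3.58.1 voom with sample quality weights, other scalings and filters, lane, recorded sex or replicate number as a term, the libraries of 1 comparison or lane, and leaving out libraries. Libraries of a group differed from each other beyond sampling noise (lowest chi-square per degree of freedom 5.62). The study describes the libraries of a group as separate biological replicates. Replicate numbers were not used as pairs, since no source states a pairing and not every pair of same-numbered libraries deviated together, although recorded sex went with the number in each group.

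The 9 members, the 45 pathway genes and the marker lists were chosen with earlier results of these data known. All members are named, and 2 genes first placed on the other lists are not reported here and were left out of their counts and sums. Of the pathway genes, every one is counted, and in each comparison those that passed and reached a mean of 5 CPM in either group are named, at most the 6 with the largest fold change. For each tested member, the 3 most correlated genes outside the members are named.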

Additional observations from a re-analysis of the deposited data

How the results depend on the processing

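Of the members, 0 passed in Ag against Naive and 0 in Ag+Costim against Ag, and 1 (Fasl) in Ag+Costim against Naive. In Ag against Naive the count became 1 under limma voom (Srgn) and 1 without Ag 3 and Naive 5 (Fasl), and 0 to 1 when a library was left out. In Ag+Costim against Ag it became 1 under DESeq2 (Srgn), 7 under limma voom, 1 without Ag 3 and Naive 5 (Srgn), and 0 to 1 when a library was left out. In Ag+Costim against Naive it became 6 under limma voom, where 13527 of 17366 tested genes passed. It became 5 with the 10 libraries of that comparison (10205 of 15751 genes), 0 with lane as a term (943 of 17366) and 0 within lane 3 (6343 of 18287). It became 3 without Ag 3 and Naive 5 (10103 of 17263 genes), and 0 to 3 when a library was left out. With the replicate number as a block it was 3 (Gzmb, Gzmk and Fasl) in that comparison, where 7833 of 17366 genes passed. The block changed neither other count. The deviations of same-numbered libraries correlated at -0.34 to 0.58 and the sources state no pairing.

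Of the pathway genes, 5 passed in Ag against Naive; the number was 10 with DESeq2, 11 with limma voom, 1 with no filter, 0 with the 10 libraries of that comparison, 0 with lane as a term, 13 without Ag 3 and Naive 5, and 2 to 13 when a library was left out. It was 0 between Ag+Costim and Ag, but 2 with DESeq2, 26 with limma voom, 1 without Ag 3 and Naive 5, and 0 to 3 when a library was left out. It was 20 between Ag+Costim and Naive, but 11 with no filter, 2 with lane as a term, 13 within lane 3, and 12 to 26 when a library was left out.

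Over all tested genes the number passing in Ag+Costim against Ag was 6 with edgeR, 5314 with DESeq2 and 11205 with limma voom, 989 without Ag 3 and Naive 5, 2679 without Ag 2 and 3573 without Ag 5. In Ag against Naive it was 1165 with edgeR, 2641 with DESeq2, 4039 with limma voom, 208 with no filter, 6 with the 10 libraries of that comparison, 0 with lane as a term (1285 at an unadjusted p under 0.05) and 3945 without Ag 3 and Naive 5. In Ag+Costim against Naive it was 7755 with edgeR, 4158 of 48994 with no filter, 943 with lane as a term and 6343 of 18287 within lane 3. It was 3892 (without Naive 4) to 9252 (without Ag 5) when a library was left out. The limma voom weights were higher for Ag 1 and Ag 4 than for Ag 2, Ag 3 and Ag 5. The cause of these shifts was not tested. Ag and Naive shared no lane, so the values with lane as a term do not test lane within that comparison.

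Signs turned in Ag against Naive under limma voom for Gzma (-1.80), Gzmb (-0.99), Gzmk (-0.31) and Gzmm (-1.04). Ctsw, near 0 there, was at -0.0278 with DESeq2, -0.0115 with DESeq2 size factors, -0.0644 with library totals, -0.0378 with no filter, -0.35 with lane as a term and -0.0690 (without Naive 5) to 0.13 (without Ag 3) when a library was left out, and Srgn was at -0.0936 with lane as a term. In Ag+Costim against Ag, leaving out a library gave Gzma -0.26 (without Ag 1) to 0.47 (without Ag 5), Gzmm -0.0764 (without Ag 4) to 0.59 (without Ag 5) and Fasl -0.0771 (without Ag 1) to 0.39 (without Ag 5). In Ag+Costim against Naive it gave Prf1 -0.26 to 0.00189 (without Ag+Costim 4). Depth limits Gzmc.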

Other observations

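Several pathway genes outside the rule for named genes passed between Ag+Costim and Naive with edgeR and had groups that did not overlap. Of these, Bid, Calr, Cflar and Tnfsf10 are described here, picked out after their values were seen. Cst7, Nkg7, Unc13d, Sytl3 and Rab11a, all higher in Ag+Costim, and Lyst, which was lower, met the same 2 conditions. Among the tested genes, 45% did not overlap either. Bid had a log2 fold change of 0.62 (SE 0.13, adjusted p = 0.00491), with 64.9 ± 1.87 CPM in Ag+Costim and 42.3 ± 5.58 in Naive (SD, n = 5 each). Calr, the calreticulin of the granule lumen and endoplasmic reticulum, stood at 0.94 (SE 0.25, adjusted p = 0.0134). Of the death receptor list, which also holds Bid, those lower in Ag+Costim with no overlap were Cflar, which encodes the caspase 8 inhibitor c-FLIP, at -0.89 (SE 0.21, adjusted p = 0.00920) and Tnfsf10, the death ligand TRAIL, at -0.82 (SE 0.21, adjusted p = 0.0115). Fas, Fadd and Casp8 of that list did not pass. Tnfsf10 fell from 14.7 ± 1.93 to 8.28 ± 1.32 CPM, whereas Fasl rose in the same comparison. Whether the 2 ligands differ in their response was not tested.

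Within groups of 5 libraries, no library of the 9 members passed Dixon's criterion for a single value apart from the rest (27 groups examined). That criterion cannot flag values that lie apart together, as the low granzyme values of Ag 1 and Ag 4 did.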
